A study of Caenorhabditis elegans with 2 samples.

Results

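Transfer RNA genes on the 5 autosomes of Caenorhabditis elegans were examined for binding of the tagged AP-2 family transcription factor APTF-3. All genes of biotype tRNA on chromosomes I to V of the WBcel235 annotation were taken, whatever their signal, which gave 336 of 612 nuclear tRNA genes and of 46890 annotated nuclear genes. Chromosome I held 66 of them, II 57, III 64, IV 71 and V 78. The other 276 nuclear tRNA genes lie on the X chromosome.

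The ChIP-seq samples formed 1 group with 2 biological replicates, and no second condition. They were whole young adults of strain OP765, grown for 64 h after synchronisation by bleaching and starvation as first-stage larvae. The strain carries wgIs765, an integrated fosmid transgene in which aptf-3 is fused to TY1, EGFP and 3xFLAG, together with unc-119(+), in an unc-119(tm4063) background. The tagged protein comes from an added copy of the gene and not from the native locus, and the description names an antibody to GFP although another field gives the antibody as aptf-3. Binding in different cell types of the whole animal cannot be told apart.

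A tRNA gene is transcribed by RNA polymerase III from a promoter that lies inside the gene. The A box and the B box, which encode the D arm and the T arm of the tRNA, are contacted by the factor TFIIIC, which places TFIIIB and the polymerase upstream of the gene, and a run of T in the coding strand ends transcription. A tRNA is named by the amino acid it carries, its isotype, and by the anticodon that reads the codon, and in C. elegans many tRNA genes are exact copies of one another and many lie inside introns of protein-coding genes. AP-2 proteins are polymerase II transcription factors that bind GC-rich palindromes.

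RefSeq gave an isotype for all but 2 of the 336 genes. The 20 standard isotypes and 1 selenocysteine tRNA gene were present, and the anticodon could be read from the sequence of 325 genes, with 48 different anticodons. The 336 genes held 137 distinct sequences, and 250 genes had at least 1 identical copy elsewhere in the nuclear genome. Inside introns of protein-coding genes lay 188 genes, 139 lay outside protein-coding genes and 9 overlapped a coding-gene exon.

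The sequences of 6 strongly bound or instructive genes are given first, since the internal promoter of each is part of the gene itself. They are RefSeq genome sequence of WBcel235 (ce11), written 5′ to 3′ on the strand of the tRNA gene, with a match to the A box pattern TNGNNNAGT in the first 30 bases and to the B box pattern GTTCNANNC in capitals. F10C1.t1 (Gly-GCC, chrII:5782212-5782282, minus strand) had the highest signal of all 336 genes, and T23F1.t1 (Lys-TTT, chrV:15465086-15465158, plus strand) the next. Y39B6A.t9 (Phe-GAA, chrV:19126044-19126116, plus strand) was the strongest phenylalanine gene, and F22B7.t3 (Phe-GAA, chrIII:8653055-8653127, plus strand) is a phenylalanine gene that the main list left out. C05G6.t1 (Val-CAC, chrIV:620482-620554, plus strand) and K06A4.t1 (Ala-CGC, chrV:9503562-9503633, plus strand) have no identical copy, and K06A4.t1 had no match to the A box pattern.
F10C1.t1: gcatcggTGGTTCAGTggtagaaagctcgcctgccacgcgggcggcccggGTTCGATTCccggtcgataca
T23F1.t1: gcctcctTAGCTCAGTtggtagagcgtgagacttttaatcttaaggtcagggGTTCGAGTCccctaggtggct
Y39B6A.t9: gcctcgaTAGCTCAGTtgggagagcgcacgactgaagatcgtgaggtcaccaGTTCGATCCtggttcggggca
F22B7.t3: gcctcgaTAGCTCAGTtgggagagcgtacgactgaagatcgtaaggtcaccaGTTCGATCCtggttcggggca
C05G6.t1: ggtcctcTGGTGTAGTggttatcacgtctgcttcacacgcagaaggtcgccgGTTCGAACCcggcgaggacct
K06A4.t1: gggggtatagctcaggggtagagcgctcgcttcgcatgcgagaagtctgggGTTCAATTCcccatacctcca

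A second set of 3 genes shows identical proline tRNA genes in different surroundings. T23F1.t2 (gene at chrV:15465225-15465296, minus strand) and W09D6.t1 (chrIII:11067027-11067098, plus strand) lay near some of the strongest summits, whereas R11G10.t1 (chrV:13509693-13509764, plus strand) had no peak within 100 bp in any of the 8 lists. The 72 bases of the gene are the same in all 3, and the 60 bases before and 30 after differ. Capitals again mark the A and B boxes.
T23F1.t2: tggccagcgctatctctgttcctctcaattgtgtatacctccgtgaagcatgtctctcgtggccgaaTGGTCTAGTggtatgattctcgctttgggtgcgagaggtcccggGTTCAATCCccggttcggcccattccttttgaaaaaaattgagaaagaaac
W09D6.t1: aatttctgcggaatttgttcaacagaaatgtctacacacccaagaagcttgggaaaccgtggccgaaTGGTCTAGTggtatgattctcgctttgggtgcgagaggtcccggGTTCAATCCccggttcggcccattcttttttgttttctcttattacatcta
R11G10.t1: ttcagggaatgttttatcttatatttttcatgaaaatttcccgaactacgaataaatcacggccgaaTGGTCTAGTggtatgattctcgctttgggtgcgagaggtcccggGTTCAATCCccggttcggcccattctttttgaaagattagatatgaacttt

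The first question was how many autosomal tRNA genes lay at an APTF-3 summit. A gene was counted when the summit of a peak lay inside it or within 100 bp. In the series-level IDR thresholded list, called the main list, 64 of 336 genes had a summit, or 19.05% (exact binomial 95% interval 15.0 to 23.7), against a background of 1.77% of all annotated nuclear genes. Since most genes are longer than a tRNA gene, the background was also taken over the first 72 bp of every gene, the median length of a tRNA gene, and was then 0.913%. The 64 genes lay near 58 distinct summits, because 6 summits served a pair of genes each. IDR is the irreproducible discovery rate, a measure of how well peaks repeat between lists. The genes are not replicates, since some share a summit or a sequence, and the intervals cover counting error only.

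The lists of the separate replicates held far fewer of these genes. The conservative list had a summit at 60 genes (17.9%, with 1.59% of all genes), replicate 1 alone at 12 genes (3.57%, with 0.45% of all genes) and replicate 2 alone at 18 genes (5.36%, with 0.614% of all genes). The lists themselves differed in length, with 785 peaks in the main list, 675 in the conservative list, 178 for replicate 1 and 241 for replicate 2. Summits near autosomal tRNA genes made up 7.39% of the main list and 8.83% of its autosomal peaks, and 5.62% and 6.22% of the lists of replicates 1 and 2.

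Only part of the main-list genes was also called in a replicate on its own. Of the 64 genes, 5 were in both replicate lists, 6 in that of replicate 1 only, 11 in that of replicate 2 only and 42 in neither. The main and the conservative list shared 52 genes, a further 12 were in the main list without the conservative one, and 8 in the conservative list without the main one. In its unthresholded ranked list, replicate 1 had a peak at 62 of the 64 genes and replicate 2 at all 64. Of all annotated nuclear genes, 46.9% and 44.3% had one in these 2 lists. The main list was made from both replicates, so these counts are no separate support for it.

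Most autosomal tRNA genes lay near some peak of the unthresholded ranked list. Of the 336 genes, 252 (75%) had a ranked summit within 100 bp, where 48.4% of all genes did. Unless another list is named, a ranked peak of the series means a peak of this list. The other series-level ranked list had a summit at 253 genes. In this paragraph the values for all genes were taken over whole genes, most of them longer, and not over their first 72 bp. The highest ranked signal within 100 bp, in the authors' own units, had a median of 48.0 over these 252 genes (interquartile range 32.6 to 67.6, lowest 3.69, highest 139), against a median of 33.5 over all annotated genes with a ranked peak and of 21.7 over the 99784 peaks of the list. Genes with a main-list summit had 63.1 to 139 (median 83.9), and the 188 with a ranked peak but no main-list summit had 3.69 to 73.5 (median 40.3). The ranges overlapped between 63.1 and 73.5, and 153 genes (45.5%) reached the 90th percentile of the ranked list, a signal of 41.1. That percentile is over single peaks, whereas each gene takes its highest peak, and the share of all genes reaching it was not taken. All annotated genes with a ranked peak had an upper quartile of 43.7, which is above it.

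Other short noncoding gene classes were set beside the autosomal tRNA genes in the same lists. X chromosome tRNA genes had a main-list summit at 69 of 276 (25%, 20 to 30.5), snRNA genes of the autosomes at 24 of 126 (19.05%, 12.6 to 27.0) and snoRNA genes of the autosomes at 47 of 313 (15.0%, 11.2 to 19.5). The autosomal minus the X share of tRNA genes was −5.95 percentage points (Newcombe 95% interval −12.6 to 0.612), an interval that includes 0, and it was negative in the conservative list and in each replicate's list. Predicted tRNA pseudogenes of the autosomes, which RefSeq lists apart from the tRNA genes and which were added as a comparison after the data were seen, had one at 4 of 180 (2.22%, 0.609 to 5.59). Their median ranked signal was 28.9 over the 77 with a ranked peak. Autosomal tRNA genes thus had a higher share than the pseudogenes in the main list, and the intervals did not overlap. In the conservative list the shares were 17.9% for tRNA genes and 2.78% for pseudogenes, and in the replicate 2 list 5.36% (3.21 to 8.33) and 0.556% (0.0141 to 3.06), in both cases with intervals apart. In the replicate 1 list they were 3.57% for tRNA genes and 2.22% for pseudogenes, with overlapping intervals. The genes are not independent and all lists come from the same 2 replicates, so these are descriptions, and the difference was not tested.

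**Figure D1:**
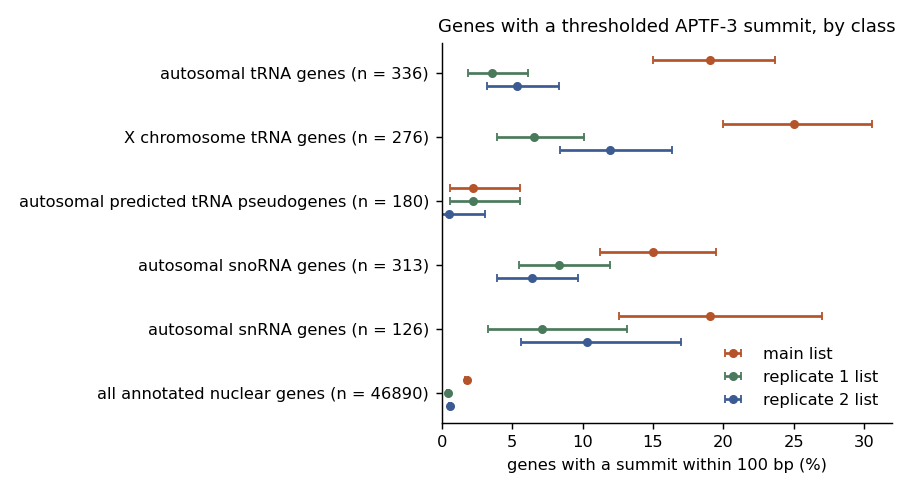
Share of genes with a thresholded summit within 100 bp (x axis, percent) for 6 gene classes (y axis), in the main list and in each replicate's own list; bars are exact binomial 95% intervals over genes. Autosomal tRNA genes stood at 19.05% in the main list, with 3.57% and 5.36% in the lists of replicates 1 and 2, and all annotated genes at 1.77%.

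The 20 genes with the highest main-list signal ranged from 92.4 to 139 and covered 11 isotypes. All 20 were also in the conservative list, 8 were in the list of replicate 1, 12 in that of replicate 2, 5 in both and 5 in neither. Their own signals ran from 27.8 to 72.9 in replicate 1 and from 37.4 to 73.4 in replicate 2, and replicate 2 was the higher at 14 of them. Protein-coding introns held 9 of the 20, and 11 lay outside coding genes.

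F10C1.t1, a glycine gene with anticodon GCC outside any coding gene, had a signal of 139 in the main list, 72.9 in replicate 1 and 63.5 in replicate 2. Its summit lay 36 bp past the 3′ end, and both replicate lists called it. The lysine gene T23F1.t1 and the proline gene T23F1.t2 face each other on chromosome V with 66 bp between them, and 1 summit lies in that gap. Its signal was 137 in the main list, 64.4 in replicate 1 and 73.4 in replicate 2. W09D6.t1 and W09D6.t2 are 2 identical proline genes that point away from each other, 107 bp apart, in an intron of rsa-2, a gene named for spindle assembly. Their summit, between the 5′ ends, had 130 in the main list, 63.1 in replicate 1 and 68.2 in replicate 2. These 3 summits, at 5 genes, were the only ones near autosomal tRNA genes that both replicate lists called.

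Other strong genes were called in 1 replicate list or in none. The phenylalanine gene Y39B6A.t9 had 111 in the main list, 53.4 in replicate 1 and 55.4 in replicate 2, and neither replicate list held it. K01A11.t1 (Lys-CTT), in an intron of the methyltransferase-like gene metl-18, had 103, 43.3 and 60.7 in the same order. C05G6.t1 (Val-CAC) had 99.3 in the main list, 53.7 in replicate 1 and 47.1 in replicate 2, and K06A4.t1 (Ala-CGC), in an intron of the SWEET sugar transporter gene swt-5, had 92.4, 51.4 and 37.4. The 2 replicates stood furthest apart, among the strongest 20, at Y53C10A.t2 (Glu-CTC), with 27.8 in replicate 1 and 70.1 in replicate 2.

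Across genes, the 2 replicates ranked the autosomal tRNA genes alike only in part. Both replicates had a ranked peak at 193 genes, and the signals at the nearest summit correlated with rho = 0.503 (Spearman) and with r = 0.476 on log10 values (Pearson). These are descriptions across genes that share libraries, depth and summits. Within the 62 genes with a main-list summit rho was 0.215, and within the 131 others it was 0.147. The main list was itself made from both replicates, so each part covers a narrower range of signal. These 2 values therefore cannot be set against the 0.503 of all genes. Replicate 2 was higher at 126 genes and replicate 1 at 67. Since each list has its own scale, this order says nothing about the amount bound.

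**Figure D2:**
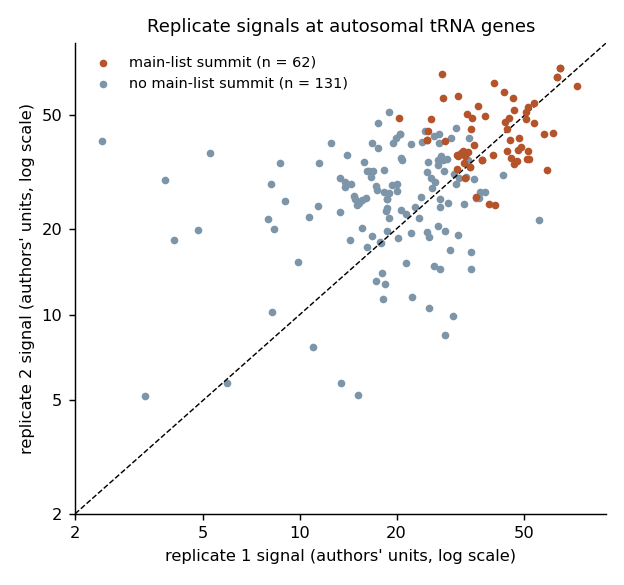
Signal of each autosomal tRNA gene in replicate 1 (x axis) and replicate 2 (y axis), both on log scales in the authors' units, at the nearest ranked summit within 100 bp; the dashed line marks equal values. Genes with a main-list summit (n = 62) sit at the upper right, and the 131 others spread below them and to their left, with 126 of all 193 genes above the line.

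By isotype, 19 of the 20 standard isotypes had at least 1 gene with a main-list summit. Proline had 7 of 22 genes, lysine 7 of 28, glutamate 6 of 18, alanine 5 of 21 and threonine 5 of 20. Isoleucine had 4 of 16 and leucine 4 of 22. Cysteine had 2 of 6 (33.3%, 4.33 to 77.7) and glycine, the isotype with the most genes, 3 of 35 (8.57%, 1.80 to 23.1). Asparagine had 0 of 14, which allows a share of up to 23.2%, although 13 of its 14 genes had a ranked peak. The 95% intervals of all isotypes overlapped, so no order among them is given.

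The strongest gene of an isotype spanned a wide range of signal. It was 139 for glycine, 137 for lysine and proline, 111 for phenylalanine and 105 for isoleucine (C27A2.t1). At the other end stood Y65A5A.t4 (His-GTG) with 78.6, F56F4.t1 (Tyr-GTA, in an intron of the peptide transporter gene pept-3) with 70.8, F14B6.t1 (Met-CAT) with 69.8 and Y38H6A.t1 (Asn-GTT) with 67.6. The isotype medians of genes with a ranked peak ran from 27.6 for glutamine and 32.8 for tryptophan to 64.0 for glutamate and 64.2 for phenylalanine. The median rests on few genes where the isotype is small, with 4 for tryptophan and 7 for phenylalanine.

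**Figure D3:**
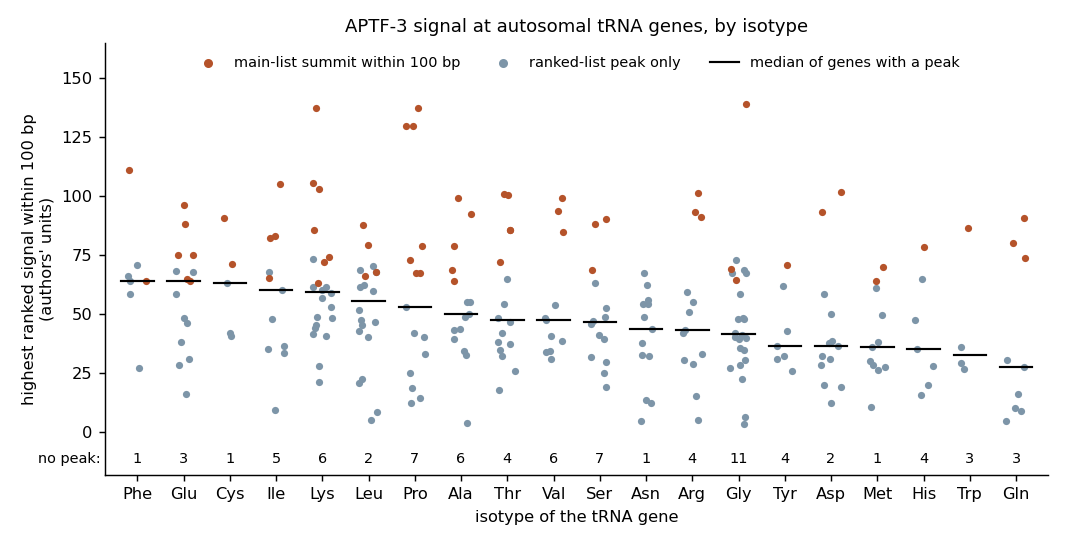
Highest ranked signal within 100 bp (y axis, authors' units) of each autosomal tRNA gene, by isotype (x axis), ordered by the median of genes with a ranked peak (black line); the numbers under 0 count genes with no ranked peak. Genes with a main-list summit lie at 63.1 or above in every isotype that has one, and asparagine has none.

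Isoacceptors, genes of 1 isotype with different anticodons, were also counted apart. Of the 48 anticodons, 35 had a gene with a main-list summit. Among the larger groups, Pro-TGG had 6 of 16, Glu-CTC 4 of 9, Lys-CTT 5 of 18 and Ala-AGC 3 of 12, while Gly-TCC had 1 of 20, Asn-GTT 0 of 13, Leu-AAG 0 of 9 and Arg-ACG 0 of 6. Of the other arginine anticodons, Arg-TCG had 2 of 3 and Arg-TCT 1 of 4. For 4 anticodons, with 6 genes together, no gene had a ranked peak, and 3 of these genes were Gly-CCC. The 11 genes whose anticodon could not be read, the selenocysteine gene included, had 0 main-list summits, and 5 of them had a ranked peak.

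Identical genes did not share their signal. Among 43 families of autosomal genes with the same sequence, which held 242 genes, 27 families contained members with and without a main-list summit, 16 had none with one, and 0 had a summit at every member. In the Pro-TGG family of 11, 5 genes had a main-list summit. T23F1.t2, W09D6.t1 and W09D6.t2 are described above. F02H6.t1 had 78.7 in the main list, 45.4 in replicate 1 and 35.5 in replicate 2, and T22F3.t1, in an intron of the glycogen phosphorylase gene pygl-1, had 67.4, 30.9 and 32.3. The other 6 had a ranked signal of 14.7 to 53.2 or, for R11G10.t1, inside an intron of the chloride channel gene avr-15, no peak at all. No source used here states how reads that match several identical genes were placed, and the part of that placement in these values was not tested.

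The other 4 of the 5 largest families with both kinds of member are given next. Families with no main-list summit, among them Asn-GTT with 13 genes, Gly-GCC with 7 and Leu-AAG with 7, are not among them. Of 18 identical Gly-TCC genes, only T04D3.t2, in an intron of the guanylate cyclase gene gcy-35, had a main-list summit (69.1 in the ranked list, 30.8 in replicate 1 and 36.4 in replicate 2), while C12C8.t1 had no ranked peak in the series or in either replicate. Of 15 Lys-CTT genes, 5 had a main-list summit, with F15D3.t1 the strongest (106 in the main list, 50.4 in replicate 1, 48.4 in replicate 2) and B0350.t1 with no series peak and 37.7 in replicate 2. Of 11 Asp-GTC genes, 2 had one, with Y105C5B.t4 at 102. F28F8.t3 had no peak in the series ranked list used here and 29.5 in the other series-level ranked list. Of 9 Ile-AAT genes, 2 had one, with C27A2.t1 at 105 and Y57A10B.t1 with no series peak and 4.25 in replicate 1.

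**Figure D4:**
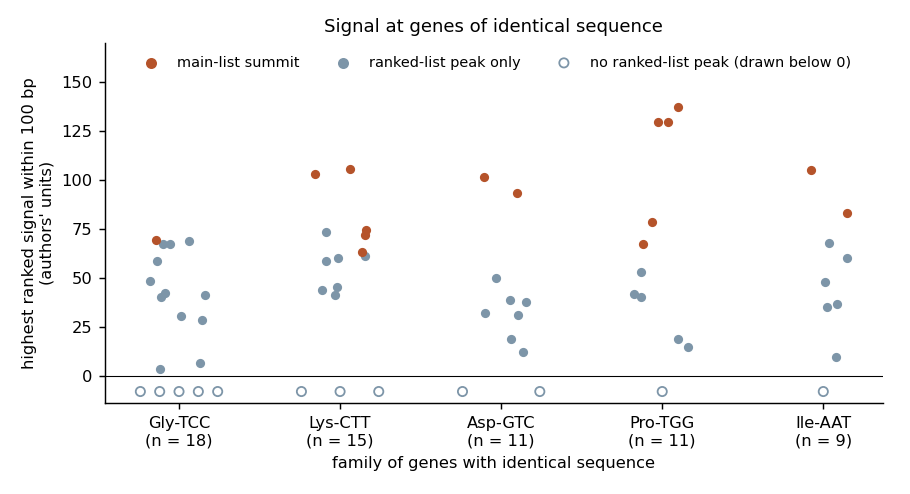
Highest ranked signal within 100 bp (y axis, authors' units) of each gene in the 5 largest autosomal families of identical tRNA genes that hold members with and without a main-list summit (x axis). Each family spans genes with no peak in the ranked list of 99784 peaks, drawn below 0, and genes with a main-list summit. The latter reach 137 in Pro-TGG and 69.1 in Gly-TCC.

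Genes with an identical copy had a main-list summit at 50 of 250 (20%, 15.2 to 25.5), and genes without one at 14 of 86 (16.3%, 9.20 to 25.8). A ranked peak was present at 196 of the 250 (78.4%) and at 56 of the 86 (65.1%). The main-list intervals overlapped, and the share with a ranked peak was higher among the genes with a copy. The genes without a copy include those whose anticodon could not be read, so the groups differ in more than copies. The part of read placement in these shares was not tested.

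Summits lay mostly inside the tRNA gene. Of the 58 distinct main-list summits, 40 (69.0%) lay inside the nearest tRNA gene, 14 upstream of its 5′ end and 4 downstream of its 3′ end. The median position was 30.5 bp after the 5′ end (interquartile range 0.25 to 44.5), between the A box, which began at base 8 in the median gene, and the B box, at base 52. At the 188 genes with a ranked peak only, 82 strongest summits lay inside, 65 upstream and 41 downstream, with a median of 14 bp and a wider interquartile range (−13.3 to 68). Summits near X chromosome tRNA genes had a median of 23.5 bp, with 39 of 66 inside the gene. Sonication gave fragments between 200 and 800 bp, which are longer than a tRNA gene, so positions within a gene are not resolved at single sites.

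**Figure D5:**
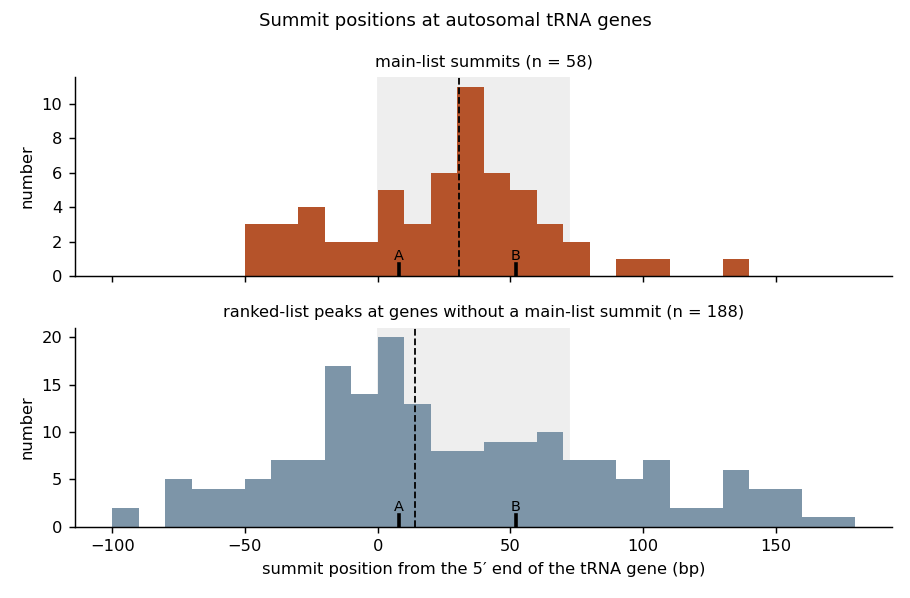
Position of summits from the 5′ end of the tRNA gene (x axis, bp) and their number in bins of 10 bp (y axis), for main-list summits above and for ranked-list peaks at genes without one below. The grey band is a gene of 72 bp, A and B mark the median starts of the boxes and the dashed line the median, which is 30.5 bp above and 14 bp below.

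Where 2 tRNA genes shared a summit, it lay between them or at 1 of them. Besides the 2 pairs with the highest signal, these were Y105C5B.t3 and Y105C5B.t2 (both Glu-TTC, pointing apart, 74.99), C16C8.t2 and C16C8.t1 (Thr-AGT and Lys-CTT, on the same strand, 71.97), T22F3.t4 and T22F3.t1 (both Pro-TGG, pointing apart, 67.4) and Y22D7AL.t3 and Y22D7AL.t4 (Met-CAT and Glu-CTC, facing each other, 64.0). Y105C5B.t2 was the counted gene nearest to the distance limit, at 98 bp from its summit.

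The gene just outside the limit was the selenocysteine tRNA gene K11H12.t1, on chromosome IV in an intron of K11H12.8. In vertebrates this tRNA differs from other tRNAs in that promoter elements upstream of the gene drive its transcription. The nearest main-list summit, with a signal of 75.8, lay 103 bp upstream of its 5′ end, and was also in the conservative list. In replicate 2 the nearest ranked summit lay 61 bp upstream with a signal of 40.6. Replicate 1 had a weak peak of 2.42 inside the gene. Under the 100 bp limit this gene counts as having no main-list summit and no series ranked peak.

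The internal promoter elements were searched on the coding strand of the gene. The A box pattern TNGNNNAGT occurred in the first 30 bases of 49 of 64 genes with a main-list summit (76.6%, 64.3 to 86.2) and of 162 of 272 without (59.6%, 53.5 to 65.4). Among X chromosome tRNA genes it occurred in 44 of 69 with a main-list summit (63.8%) and 130 of 207 without (62.8%). Identical genes share the pattern or its absence, and the autosomal difference was not tested. The B box pattern GTTCGANNC occurred in 43 of 64 (67.2%) and in 198 of 272 (72.8%), and the wider pattern GTTCNANNC, which includes every match of the narrower one and was added after the data were seen, in 62 of 64 (96.9%) and 257 of 272 (94.5%). A run of TTTT followed within 30 bp of the 3′ end at all 64 and at 268 of 272. For comparison, windows beginning 100 bp upstream of 19973 protein-coding gene starts were searched. They were 72 bp long for the B box patterns and 30 bp for the others, and so ended before the start. Patterns other than TTTT were searched there on both strands. The shares were 3.57% for the A box pattern, 0.280% and 1.82% for the narrower and wider B box patterns and 46.8% for TTTT. On the opposite strand of the tRNA genes, over the whole gene, the A box pattern occurred in 0 of 64 and 1 of 272 genes, and the narrower B box pattern in 3 of 64 and 13 of 272.

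The AP-2 consensus GCCNNNGGC, a palindrome that reads the same on both strands, was present at few of these genes. It occurred in the gene or within 100 bp at 1 of 64 genes with a main-list summit (1.56%, 0.0396 to 8.40) and at 15 of 272 without (5.51%, 3.12 to 8.93), a difference of −3.95 percentage points (Newcombe 95% interval −7.57 to 3.15), which was −1.38 points within the gene alone. Windows of the same length, 272 bp, at protein-coding gene starts held it in 1.51% of cases. A match is a stretch of letters and not a bound site.

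Genes inside introns and genes outside coding genes had similar shares. A main-list summit was present at 34 of 188 intronic genes (18.1%, 12.9 to 24.3) and at 30 of 139 genes outside (21.6%, 15.1 to 29.4), a difference of −3.50 points (Newcombe interval −12.5 to 5.09). In the list of replicate 1 alone the difference was 1.38 points and in that of replicate 2 alone 2.07 points, the other way round. The 9 genes that overlap a coding exon had 0, which allows up to 33.6%. Intronic genes on the same strand as their host had a main-list summit at 15 of 110 (13.6%, 7.84 to 21.5) and those on the opposite strand at 19 of 77 (24.7%, 15.6 to 35.8). This split was added after the data were seen, its difference of −11.0 points had an interval of −22.9 to 0.227, and in the list of replicate 1 alone it was 2.86 points.

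Genes with another tRNA gene within 1000 bp had a main-list summit at 25 of 101 (24.8%, 16.7 to 34.3), and single genes at 39 of 235 (16.6%, 12.1 to 21.98). The difference of 8.16 points had an interval of −0.927 to 18.3, which includes 0. It was 2.78 points in the conservative list and 1.44 points with neighbours counted within 5000 bp. Neighbours at such distances can share a summit, so their counts are not independent. The 17 genes with an intron of their own had a summit at 3 (17.6%), against 61 of 319 genes without one (19.1%).

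By chromosome, main-list summits were found at 13 of 66 genes on I, 8 of 57 on II, 17 of 64 on III, 14 of 71 on IV and 12 of 78 on V. Ranked peaks were present at 57.7% of the genes on chromosome IV, and at 77.3% to 82.8% of those on each of the other 4. Chromosome IV also holds 14714 of the annotated piRNA genes, which are short polymerase II units that lie in dense groups, and fewer ranked peaks per Mb (801) than the other autosomes (1016 to 1134). After this was seen, the tRNA genes were split by whether a piRNA gene lay within 2000 bp. On chromosome IV, 23 of 37 tRNA genes with a piRNA gene near had no ranked peak (62.2%, 44.8 to 77.5), and 7 of 34 without (20.6%, 8.70 to 37.9). On the other 4 autosomes, 51 of 259 tRNA genes with no piRNA gene near lacked a ranked peak (19.7%). Only 6 had a piRNA gene near, and 3 of these lacked a ranked peak (50%, 11.8 to 88.2). Main-list summits were present at 7 of 37 tRNA genes near piRNA genes (18.9%) and at 7 of 34 away from them (20.6%) on chromosome IV. What underlies the split was not tested.

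Some of the genes without a main-list summit had a signal as high as genes with one. F42H10.t1 (Lys-CTT, in an intron of mig-39) had 73.5 in the ranked list, 38.9 in replicate 1 and no replicate 2 peak. T22A3.t1 (Gly-GCC, in an intron of set-18) had 73.1, with 27.0 in replicate 1 and 43.0 in replicate 2. F22B7.t3 (Phe-GAA) had 70.6, 33.4 and 34.8, Y110A2AL.t2 (Leu-AAG) 70.5, 27.2 and 39.9, and C14B9.t2 (Leu-CAA) 68.8, 26.2 and 42.2, in the same order. F42H10.t1 and F22B7.t3 were in the conservative list. All 64 genes with a ranked peak at an IDR of 0.01 or less were in the main list, and no other autosomal tRNA gene reached that IDR. Since the main list is itself thresholded by IDR, this match describes its cut and is no separate support.

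Of the 84 genes with no peak in the series ranked list used here, 19 had a ranked peak in replicate 1 and 27 in replicate 2. None of these 3 lists had a peak at 43 genes. The other series-level ranked list had a peak at some of the 84. Among them were K04A8.t3 with 85.5, K04A8.t2 with 64.5 and F28F8.t3 with 29.5. K04A8.t3 was also in the conservative list and in the thresholded list of replicate 1. The absence of a peak was thus not the same in all lists, and the number of reads behind it is unknown.

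Other features lay close to many of the 58 main-list summits. Of these, 13 (22.4%) lay in the promoter window of a protein-coding gene, from 1000 bp upstream to 200 bp downstream of its 5′ end, and the median distance to the nearest coding 5′ end was 1190.5 bp. No summit lay within 100 bp of a snoRNA, snRNA, miRNA or rRNA gene, and 39 lay within 100 bp of another annotated noncoding RNA gene. The same shares were not taken for tRNA genes without a summit or for the rest of the main list. The counts therefore describe the surroundings and are not read as a trait of these summits. Which of the neighbouring features a summit belongs to was not tested.

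The protein-coding genes that make and use tRNAs were examined in the same promoter window, where the main list had a summit at 1.49% of all coding genes. Of 16 genes of RNA polymerase III and its initiation factors, 1 had a main-list summit. This was rpc-2, which encodes the second-largest subunit of the polymerase, with a ranked signal of 69.1. The shared subunit genes rpac-19 and rpac-40 had ranked signals of 61.3 and 43.1, brf-1 of TFIIIB had 32.7, and mafr-1, a repressor of the polymerase, had 13.0. Of 8 processing and export genes, 0 had a main-list summit, with 60.04 for hoe-1, which encodes the tRNA 3′ endonuclease, and 17.5 for the tRNA exportin gene xpo-3. Of 20 cytoplasmic tRNA synthetase genes, from a list of 21 symbols of which 1 matched no annotated gene, 0 had one, and gars-1, for glycine, had the highest ranked signal at 50.6.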

How the data were processed

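The 8 peak lists of 2 biological replicates of APTF-3 ChIP-seq in whole young adults were used. Peaks are on ce11 per the labels, with aligner and peak caller not given in the sources used here. The deposited signal of each peak has no defined scale and served to describe and rank peaks within 1 list. For each ranked peak the authors also deposited the −log10 of its global IDR. Library depth is unknown, so no interval that needs reads is given. The control was not analysed here. In the series-level ranked lists, 16 columns with values of inputs that no label links to a replicate were left out.

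Genes came from Ensembl release 115 (WBcel235, the assembly of ce11), and isotypes, exons and predicted tRNA pseudogenes from RefSeq. Anticodons were read from the spliced sequence and kept where they fitted the RefSeq isotype. Summits were matched within 100 bp of a gene, and shares carry exact binomial 95% intervals. No test was run, since there is 1 group and the genes are not independent. The members, lists and rules were chosen with earlier results of these data known. Named genes were the 20 with the highest main-list signal, the strongest of each isotype, the 5 with the highest ranked signal and no main-list summit, the strongest and weakest of the 5 largest mixed families of identical genes, and those just inside and outside 100 bp. Others named were chosen after their values were seen. Sequences were printed only for genes with no copy on chromosome I. Summit matching was checked on simulated peaks over 336 genes, in 20 of 20 runs. Python 3.11.15, pandas 2.3.3, numpy 2.4.6, scipy 1.17.1 and matplotlib 3.10.9 were used.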

Additional observations from a re-analysis of the deposited data

How the results depend on the processing

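The count of 64 autosomal tRNA genes with a summit was 60 in the conservative list, and 58 and 68 at distances of 50 and 200 bp. It was 39 with the upper 50% of main-list peaks by signal, 40 with the summit required inside the gene and 14 with every gene that has an identical copy left out, where the share was 16.3% of 86. Without 1 replicate the count was 12 to 18, the distinct summits 10 to 15 in place of 58, and the median ranked signal 24.9 to 29.5 in place of 48.0. Either library alone lowered the count by more than 1.5 times. These lists differ from the main list in length and in the scale of their signal. With genes lacking a ranked peak counted as 0, the median signal was 38.0. The intronic minus outside share turned from −3.50 points to 1.38 and 2.07 points without 1 replicate, and the same minus opposite strand share from −11.0 to −2.34 and 2.86 points, the last in the list of replicate 1. The cause was not tested. The clustered minus single share, 8.16 points, was 2.78 points in the conservative list and 1.44 points with neighbours within 5000 bp. The autosomal minus X share was negative in each thresholded list and distance tried. With ranked peaks its sign differed between lists. The autosomal share was the higher in the other series ranked list (75.3% against 74.3%) and in that of replicate 1 (71.1% against 65.6%). It was the lower in the main ranked list (75% against 76.8%) and in that of replicate 2 (70.8% against 72.1%). The median summit position stayed between 24.5 and 37 bp. No paired analysis was possible because there is 1 group. The peak lists give no reads, so depth limits every absent peak.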

Other observations

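The asparagine genes were read on both sides after the counts were seen. On the autosomes, 0 of 13 Asn-GTT genes had a main-list summit and the highest ranked signal was 67.6, whereas 3 of 6 Asn-GTT genes on the X chromosome had one, with a highest signal of 86.6. Gly-TCC genes had a summit at 1 of 20 on the autosomes and 4 of 16 on the X chromosome, and the highest signals were 69.1 and 156. Pro-TGG went the other way, with 6 of 16 on the autosomes and 3 of 15 on the X chromosome, and highest signals of 137 and 73.6. These groups were picked for their counts, and the differences were not tested.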
